A study of Mus musculus with 8 samples.

Results

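The transcription factors that set up and maintain the hepatocyte were examined as a group of 8: Hnf4a, Foxa1, Foxa2, Foxa3, Cebpa, Cebpb, Onecut1 and Prox1. The members were chosen by name, and each of the 8 had 1 row on the array that carried its symbol alone, out of 22180 genes that could be named. All 8 lay above the filter on dim genes and were tested among 15380 genes. Expression was measured in primary hepatocytes, the parenchymal cells of the liver, which 2-step collagenase perfusion had freed from p16+/+ mice (wild type) and from p16-/- littermates (knockout), with 4 samples and 4 arrays per group; p16 is an inhibitor of the cyclin-dependent kinases that open the cell cycle. Both groups attached overnight in Williams E medium containing insulin (100 nM), dexamethasone (25 nM) and 10% FBS. At 16 h they were moved for 8 h to DMEM whose glucose was 1 mM, with antibiotics and 0.1% BSA, and RNA was taken at 24 h. The labels give neither the strain and age of the mice nor which exons the p16 allele lacks. The labels call the samples biological replicates without tying each to an animal, so the tests measure spread among cultures that may be partly technical. In cultures of mixed cells, fewer cells of a type and less RNA per cell cannot be told apart.

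Cdkn2a, the gene that codes for p16 and, in another reading frame, for p19ARF, measured 4.16, 4.79, 4.48 and 4.68 in wild type replicates 1 to 4 and 4.28, 4.66, 4.27 and 4.91 in knockout replicates 1 to 4. The groups overlapped and the change was 0.0040 (SE 0.17, 95% interval -0.37 to 0.38; limma, adjusted p = 0.992). Whether the array row covers the deleted part is not known, so it does not check the genotype, and every direction given here rests on the labels.

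These factors form a network in which each binds the regulatory regions of several others. HNF4A is a nuclear receptor that drives genes of lipid transport, clotting and drug metabolism. The FOXA proteins are forkhead factors that open closed chromatin at liver enhancers. C/EBPalpha and C/EBPbeta are leucine zipper factors of metabolism and of the acute phase response. HNF6 (the product of Onecut1) acts in liver and bile duct development, and PROX1 is a homeodomain factor that restrains the activation of bile acid synthesis by HNF4A. The comparison asks whether these regulators move with their hepatocyte targets.

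The promoter sequences of the members were searched for letters that factors of this network bind. All 8 matched the RefSeq promoter table (GRCm38.p6), with 12 start sites, and the 250 bases before each start were searched on both strands for 6 short motifs, all chosen after the expression values were seen: the forkhead motif TGTTTAC, the HNF1 site GTTAAT, the ONECUT motif ATTGAT, the HNF4 motif CAAAGTCCA the C/EBP motif TTGCNNAA and the forkhead core TGTTT. Of all 32851 windows of that length in the table, 3.17% held the forkhead motif, 6.43% the HNF1 site, 6.72% the ONECUT motif, 0.384% the HNF4 motif and 9.56% the C/EBP motif. The core TGTTT, which lies within the forkhead motif, stood in 46.4% of all windows and in 6 of the 12 of the members, and for being that common it is not capitalised. No other motif matches overlapped in the members' windows. The 5 windows below are shown because they belong to the member that differed most, Hnf4a, and to the FOXA family, of whose 3 members Foxa3 passed the test; capitals mark the motif matches.
Hnf4a, upstream start (chr2:163506607-163506856, plus strand): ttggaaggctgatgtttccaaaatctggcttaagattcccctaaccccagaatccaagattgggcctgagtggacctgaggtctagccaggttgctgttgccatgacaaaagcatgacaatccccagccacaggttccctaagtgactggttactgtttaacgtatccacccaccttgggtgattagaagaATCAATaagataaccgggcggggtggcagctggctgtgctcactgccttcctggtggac
Hnf4a, downstream start (chr2:163546905-163547154, plus strand): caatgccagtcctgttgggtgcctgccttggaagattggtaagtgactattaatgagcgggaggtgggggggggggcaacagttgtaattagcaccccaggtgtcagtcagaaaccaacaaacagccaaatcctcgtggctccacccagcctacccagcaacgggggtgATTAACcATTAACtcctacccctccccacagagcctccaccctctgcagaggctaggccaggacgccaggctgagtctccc
Foxa1 (chr12:57546112-57546361, minus strand): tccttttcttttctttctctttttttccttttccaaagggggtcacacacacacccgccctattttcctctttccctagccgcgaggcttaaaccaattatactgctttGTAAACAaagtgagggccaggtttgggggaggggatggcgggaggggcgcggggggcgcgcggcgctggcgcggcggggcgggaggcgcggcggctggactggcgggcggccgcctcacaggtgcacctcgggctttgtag
Foxa2, the farthest upstream of 3 starts (chr2:148046970-148047219, minus strand): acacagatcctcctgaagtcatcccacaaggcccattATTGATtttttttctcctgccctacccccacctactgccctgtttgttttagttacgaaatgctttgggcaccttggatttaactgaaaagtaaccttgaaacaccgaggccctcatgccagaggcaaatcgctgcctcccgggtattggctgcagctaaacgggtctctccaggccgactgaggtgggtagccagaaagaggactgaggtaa
Foxa3 (chr7:19023540-19023789, minus strand): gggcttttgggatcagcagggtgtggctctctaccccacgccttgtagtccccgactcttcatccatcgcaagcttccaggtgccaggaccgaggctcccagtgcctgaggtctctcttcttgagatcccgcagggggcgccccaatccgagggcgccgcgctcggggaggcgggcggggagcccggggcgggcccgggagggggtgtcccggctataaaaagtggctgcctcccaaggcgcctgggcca

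The upstream Hnf4a window held 1 ONECUT motif, 59 to 54 bases before the start, and the downstream one, which is the promoter used by adult hepatocytes, held 2 HNF1 sites 1 base apart, at 81 to 76 and 74 to 69 bases. The Foxa1 window held 1 forkhead motif at 141 to 135 bases, and the Foxa2 window 1 ONECUT motif at 213 to 208 bases. Another Foxa2 start had 1 HNF1 site, and the single Foxa3 window had no match. None of the 5 capitalised motifs was found in the windows of Cebpa, Cebpb, Onecut1 or Prox1. A match is a description of the letters in these windows, and the array row of Hnf4a is not known to tell its start sites apart.

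Of the 8 factors, Hnf4a, Foxa3 and Prox1 rose in the knockout, none fell, and Foxa1, Foxa2, Cebpa, Cebpb and Onecut1 did not pass the test (limma across all genes, Benjamini-Hochberg adjusted p under 0.05). Of all genes tested 13.8% passed in either direction, 7.02% rose and 6.76% fell. At an unadjusted p under 0.05 the counts were 4 higher and 0 lower, Foxa2 being the fourth. The median change of the 8 was 0.18 on the log2 scale, against -0.02 for all genes tested. The members were picked with earlier results of these data known, so their count is not independent evidence that the group as a whole was shifted.

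Hnf4a, which codes for the nuclear receptor at the centre of the network, changed most. Its log2 values were 7.32, 6.92, 7.38 and 7.16 in wild type replicates 1 to 4 and 8.28, 8.15, 8.04 and 8.03 in knockout replicates 1 to 4. The lowest knockout array lay above the highest wild type array, and of all genes tested 20.2% had groups that did not overlap. The mean went from 7.20 ± 0.21 to 8.13 ± 0.12 (SD, n = 4), a rise of 0.93 (SE 0.12, 95% interval 0.68 to 1.18; limma, adjusted p = 3.41e-04), which is 1.90-fold. Of all genes tested 2.07% had a larger change in either direction. Over all alternatives its change ran from 0.84 to 0.99.

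The 3 FOXA genes, which code for closely related forkhead proteins, had 1 riser among them, and none of the differences between them passed after adjustment, as given with the other shifts. Foxa3, a forkhead factor of the adult liver, measured 7.53, 7.41, 7.54 and 7.89 in wild type replicates 1 to 4 and 8.31, 8.17, 8.01 and 8.41 in the knockout replicates. All 4 knockout arrays were above all wild type arrays, the nearest being wild type replicate 4 and knockout replicate 3. The rise was 0.63 (SE 0.12, 95% interval 0.36 to 0.90; limma, adjusted p = 0.00624), or 1.55-fold.

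Foxa2 measured 6.90, 6.80, 6.90 and 6.98 in wild type and 7.16, 7.25, 6.99 and 7.01 in knockout replicates. The groups did not overlap, yet knockout replicate 3 and wild type replicate 4 lay side by side. Its change of 0.21 (SE 0.09, 95% interval 0.0039 to 0.41) did not pass after adjustment over all genes (limma, adjusted p = 0.178). Foxa1, whose protein binds many of the same enhancers as FOXA2, measured 6.93, 7.07, 6.92 and 6.63 in wild type and 6.86, 7.04, 6.96 and 6.42 in knockout replicates. The groups overlapped along most of their range, and the change was -0.07 (95% interval -0.38 to 0.25; limma, adjusted p = 0.820). Without knockout replicate 4, its lowest array, the change was 0.066. Replicate 4 held the lowest Foxa1 and the highest Foxa3 value of each group.

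Cebpa, the leucine zipper factor that goes with the quiescent, metabolic hepatocyte, measured 6.97, 6.89, 6.79 and 6.88 in wild type and 6.64, 6.95, 6.75 and 6.87 in knockout replicates. The groups overlapped, with the 2 lowest arrays both from knockouts, replicates 1 and 3. The change was -0.08 (SE 0.09; limma, adjusted p = 0.661), and its 95% interval of -0.29 to 0.13 leaves out rises above 1.09-fold. Cebpb, its relative of the acute phase and regeneration, measured 8.27, 8.32, 8.32 and 8.11 in wild type and 8.52, 8.19, 8.41 and 8.22 in knockout replicates. The groups overlapped here too, and the change was 0.08 (SE 0.10, 95% interval -0.15 to 0.30; limma, adjusted p = 0.700).

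Onecut1 measured 4.57, 4.43, 4.69 and 4.37 in wild type and 4.74, 4.63, 4.72 and 4.58 in knockout replicates, so that 2 knockout arrays lay above the highest wild type array and 2 did not. Its change was 0.15 (SE 0.10, 95% interval -0.06 to 0.36; limma, adjusted p = 0.366). Prox1 measured 6.34, 6.11, 6.65 and 6.14 in wild type and 6.98, 6.89, 7.05 and 6.56 in knockout replicates. Knockout replicate 4 lay below wild type replicate 3, and the other knockout arrays were above all wild type arrays. Prox1 rose by 0.56 (SE 0.14, 95% interval 0.24 to 0.87; limma, adjusted p = 0.0242), or 1.47-fold. This call was not firm. It ended when any 1 of 6 arrays was left out, namely replicates 1, 2 and 4 of the wild type and 1, 2 and 3 of the knockout. The adjusted p-values were then 0.0572, 0.0721, 0.0648, 0.0682, 0.0620 and 0.0636 (limma), from fewer arrays. The changes were 0.57, 0.49, 0.50, 0.52, 0.55 and 0.50.

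**Figure D1:**
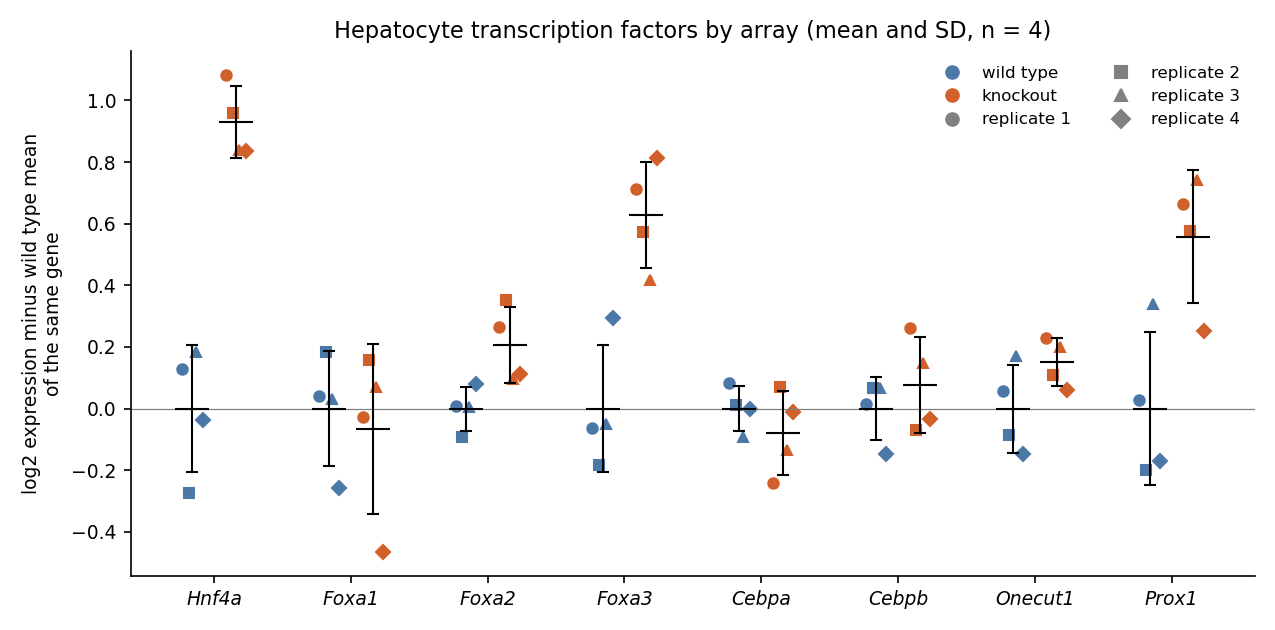
Log2 expression of the 8 transcription factors on each array, minus the wild type mean of the same gene (vertical axis, log2 units); points are arrays with a shape for each replicate number, bars the mean and SD of 4 arrays. Hnf4a and Foxa3 show no overlap between the groups with mean rises of 0.93 and 0.63, Prox1 overlaps through knockout replicate 4, and Cebpa, Cebpb and Foxa1 scatter around 0.

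Knockout replicate 4, which is low in Foxa1 and Prox1, also stood apart from the other 7 arrays over all genes, at 25.2 on the second principal component (17.9% of the variance) against -14.6 to 8.91. Its part in the members' values was not tested. Without it Hnf4a, Foxa3 and Prox1 still passed the test.

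Genes known to depend on these factors were compared with them through 5 lists taken from textbook knowledge. The lists were chosen with earlier results of these data known, so their counts are not independent evidence that the targets rose. Together the lists held 73 tested genes, of which 41 rose, 3 fell and 29 did not pass, with a median change of 0.38. Of all genes tested 7.02% rose and 6.76% fell, the background for the counts of each list below. Hnf4a itself is on the FOXA and HNF6 lists and Foxa2 on the HNF6 list. Without them 40 of 71 rose. The lists share genes: the FOXA and C/EBPalpha lists have 7 in common, of 16 and 21 tested, and so are not separate evidence. Rises were also seen outside the lists: of 7 tested mature hepatocyte genes on none of the 5 lists 6 rose.

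Of 25 tested HNF4A targets 14 rose and none fell, with a median change of 0.38 and a range of -0.13 to 2.34. The 3 of smallest p were Hgd, an enzyme of tyrosine breakdown, Slc10a1, the uptake transporter of bile acids, and Otc, an enzyme of the urea cycle. Hgd measured 4.26, 4.97, 4.54 and 4.68 in wild type and 7.12, 6.92, 6.93 and 6.82 in knockout replicates, a rise of 2.34 (SE 0.14; limma, adjusted p = 3.61e-06). Slc10a1 rose by 1.67 (SE 0.10) and Otc by 1.24 (SE 0.10), in both cases without overlap between the groups. The list also holds apolipoprotein genes, which code for the protein part of lipoproteins. Apoa1, Apoa2, Apoa4, Apob and Apoc2, named after their values were seen, changed by 0.22, 0.17, 0.11, -0.03 and -0.13 and did not pass, while Apoc3 rose by 0.33 (SE 0.08). Cyp7a1, the enzyme that opens bile acid synthesis and a gene that HNF4A activates and PROX1 restrains, was below the filter, with means of 1.96 in wild type and 2.09 in knockout cells, and was not tested.

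FOXA targets had 11 rises and 1 fall among 16 tested genes, with a median change of 0.73. Leaving out Hnf4a, a choice made after these counts were seen, gave 10 rises among 15 and a median of 0.68. Pck1, the entry enzyme of gluconeogenesis, measured 5.69, 5.28, 5.72 and 5.85 in wild type and 8.60, 7.97, 7.99 and 7.86 in knockout replicates, a rise of 2.47 (SE 0.17; limma, adjusted p = 6.12e-06). The sulfotransferase gene Sult1a1 rose by 1.17 (SE 0.08) and Cps1, which makes carbamoyl phosphate for the urea cycle, by 1.32 (SE 0.10). Abcc2, an export pump for conjugated bilirubin, was the 1 gene of the list that fell, by 0.52 (SE 0.11, adjusted p = 0.00939). Alb, the albumin gene and the textbook FOXA target, had a change of 0.03 (95% interval -0.14 to 0.20). Its wild type mean of 13.54 stood close to the highest value among the named genes, 13.65.

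C/EBPalpha targets had the highest median among the 5 lists, 0.76, with 16 of 21 tested genes higher, none lower and 5 not passing. Arg1, the last enzyme of the urea cycle, measured 6.73, 7.17, 7.17 and 7.75 in wild type and 10.03, 9.90, 9.78 and 9.85 in knockout replicates. All knockout arrays were above all wild type arrays by over 2 log2 units, and the rise was 2.69 (SE 0.18; limma, adjusted p = 5.01e-06). Gys2, the glycogen synthase of liver, rose by 1.75 (SE 0.11), and Pck1, also on this list, by the amount given above. Cebpa itself had a change of -0.08 on the same arrays.

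Of 23 tested acute phase genes with C/EBP sites 10 rose, 2 fell and 11 did not pass, with a median change of 0.15. Crp, which codes for C-reactive protein, rose by 1.78 (SE 0.11; limma, adjusted p = 5.01e-06) and the orosomucoid gene Orm3 by 2.15 (SE 0.15). The 2 that fell were the chemokine gene Ccl2, by 1.70 (SE 0.13), and the interleukin-1 antagonist gene Il1rn, by 0.86 (SE 0.12). None of these 4 genes had overlap between the groups. Genes for abundant plasma proteins of the same list were on both sides of the threshold, and those given here were named after their values were seen. Hp (haptoglobin) had a change of 0.02, Hpx (hemopexin) of -0.0019 and Orm1 of 0.04, and none of these passed. The fibrinogen genes Fga, Fgb and Fgg rose by 0.60, 0.28 and 0.29, Orm2 by 0.27 and Serpina3n by 0.38.

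In promoter windows of this list the C/EBP motif stood in 14 of 25, or 56.0%, against 9.56% of all windows. The genes were listed for having C/EBP sites, so this excess was built into the choice and is not a result. Of the tested genes with a window, 11 had a match, of which 6 rose and none fell, and 8 had none, of which 4 rose and 1 fell; the median changes were 0.27 and 0.22. The windows of the genes with a match that had the smallest and the largest p are shown, with the motif in capitals, a choice made after their values were seen.
Orm3, which rose (chr4:63355908-63356157, plus strand): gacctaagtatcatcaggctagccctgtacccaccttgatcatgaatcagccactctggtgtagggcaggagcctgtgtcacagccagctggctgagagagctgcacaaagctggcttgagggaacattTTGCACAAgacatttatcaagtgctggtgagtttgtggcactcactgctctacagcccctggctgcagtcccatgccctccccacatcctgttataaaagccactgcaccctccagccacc
Hpx, which did not pass (chr7:105600117-105600366, minus strand): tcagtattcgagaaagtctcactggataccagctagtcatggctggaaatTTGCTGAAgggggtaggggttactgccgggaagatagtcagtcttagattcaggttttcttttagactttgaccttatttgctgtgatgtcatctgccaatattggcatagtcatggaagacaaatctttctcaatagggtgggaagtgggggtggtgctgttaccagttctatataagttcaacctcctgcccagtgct

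The motif lay 121 to 114 bases before the start in Orm3 and 200 to 193 bases before it in Hpx. A match to these letters thus stood in genes that rose and in genes that did not.

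HNF6 targets were few. Of 11 tested 6 rose, none fell and 5 did not pass, with a median change of 0.40. Leaving out Hnf4a and Foxa2, again after the counts were seen, gave 5 of 9 and the same median. Slc2a2, the glucose transporter of hepatocytes, rose by 1.26 (SE 0.09; limma, adjusted p = 9.19e-06), G6pc, which frees glucose from its phosphate, by 0.92 (SE 0.11), and Cyp2c29, a drug-metabolising cytochrome, by 0.86 (SE 0.09).  In the 15 promoter windows of FOXA targets the forkhead motif was found in 0 and its core in 12 (80.0%). That core stood in 46.4% of all windows, but in 79.2% of those of mature hepatocyte genes and 78.6% of those of blood cell markers. The HNF1 site was found in 8 windows of FOXA targets (53.3%), against 6.43% of all windows and 29.2% of those of mature hepatocyte genes. In the 17 windows of HNF6 targets the ONECUT motif stood in 5 (29.4%) and the HNF1 site in 7 (41.2%), against 6.72% and 6.43% of all windows. Windows of Hnf4a and Foxa2, described above, were 2 of these 5 and 2 of these 7. The FOXA windows include the 2 of Hnf4a, of which the downstream one has the HNF1 site. The HNF6 list was made of genes known to be bound by HNF6, so its ONECUT share is not independent of that choice.

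**Figure D2:**
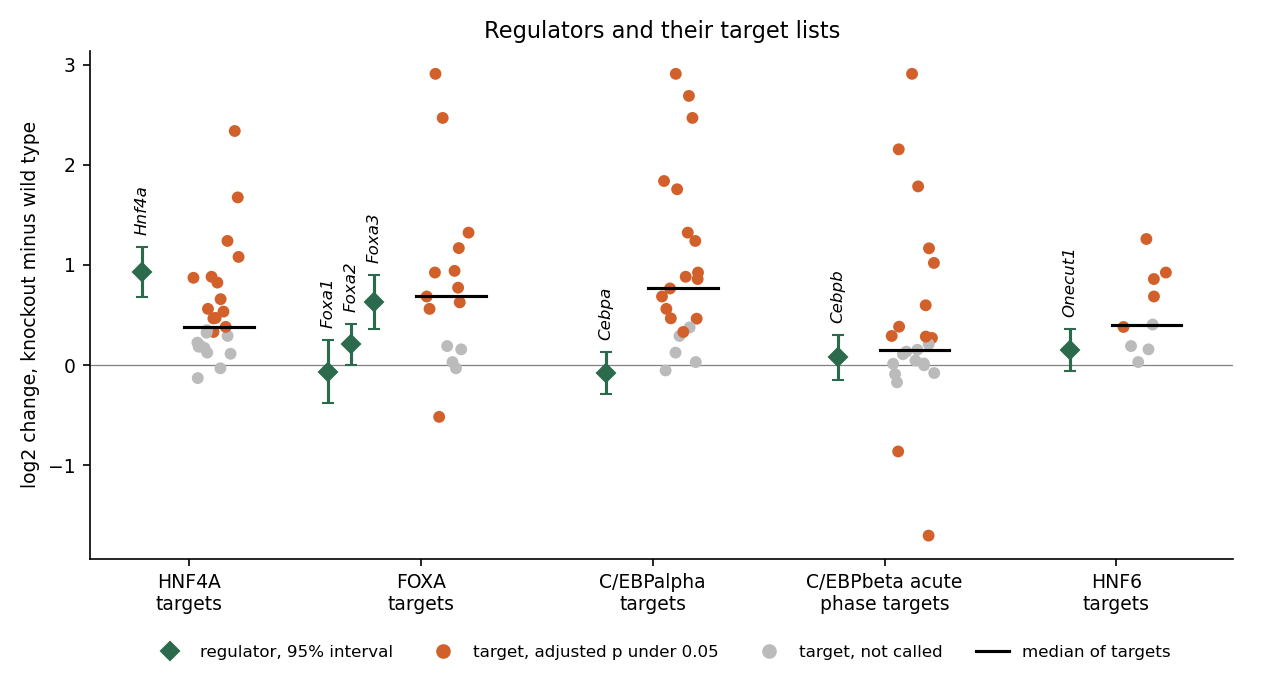
Log2 change, knockout minus wild type, of each regulator (diamonds, with limma's 95% interval) beside its tested targets (points, the 8 factors left out, coloured where the adjusted p is under 0.05; the line is their median). Hnf4a lies above the median of its targets, 0.93 against 0.38, Foxa3 at 0.63 near the 0.68 of the FOXA targets, and Cebpa at -0.08 below a median of 0.76.

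Whether each regulator moved as much as its targets was tested on 1 value per array, the regulator's log2 value minus the mean of its own target list without the 8 factors. The lists were chosen with earlier results of these data known, so these shifts and their p-values are not independent evidence. For a regulator that changed little, the shift mostly restates the rise of its list mean, which was 1.00 for the C/EBPalpha targets. Rows of different genes differ in brightness, so only the shift of this value between the groups can be read. The shift is not free of brightness either, since changes of very dim or very bright genes are compressed. Onecut1 was the dimmest of the 8 factors, with a wild type mean of 4.51, and the very bright Alb is on the FOXA, C/EBPalpha and HNF6 lists. For Cebpa it lay between -1.23 and -1.01 in wild type and between -2.42 and -1.99 in knockout arrays, a shift of -1.07 with no overlap. For Foxa1 the shift was -0.88, for Foxa2 -0.61 and for Onecut1 -0.39, each without overlap between the groups, and for Cebpb it was -0.30 with overlap.

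Hnf4a was the 1 factor of the 7 tested in this way with a shift upward, 0.36, from values of -0.81 to -0.43 in wild type to -0.35 to -0.17 in knockout arrays. Foxa3 had a shift of -0.18 with overlapping groups (two-sided exact permutation p = 0.286, adjusted p = 0.314). With the median of the target list in place of its mean the shift of Hnf4a was 0.12 (exact permutation test, adjusted p = 0.244), against 0.36 with the mean. The Foxa3 shift was -0.09 without wild type replicate 4, -0.12 without knockout replicate 3 and -0.29 without knockout replicate 4. No direction turned with the list median or with cyclic loess.

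Pairs of related factors were compared in the same way. The shift of Foxa2 against Foxa3 was -0.42 without overlap, that of Foxa1 against Foxa3 -0.70 and that of Foxa1 against Foxa2 -0.27, both with overlap. Cebpa against Cebpb shifted by -0.16 (two-sided exact permutation p = 0.371). None of the 11 shifts passed after adjustment. With 4 against 4 arrays the smallest p of the exact permutation test is 0.0286, which 6 of the 11 reached, giving an adjusted p of 0.0524, and 7 would have been needed to pass. Without wild type replicate 4 7 passed, each at an adjusted p of 0.0449 (exact permutation test, 3 against 4 arrays): the shifts of Hnf4a, Foxa1, Foxa2, Cebpa and Onecut1 against their targets and those of Foxa1 and Foxa2 against Foxa3.

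**Figure D3:**
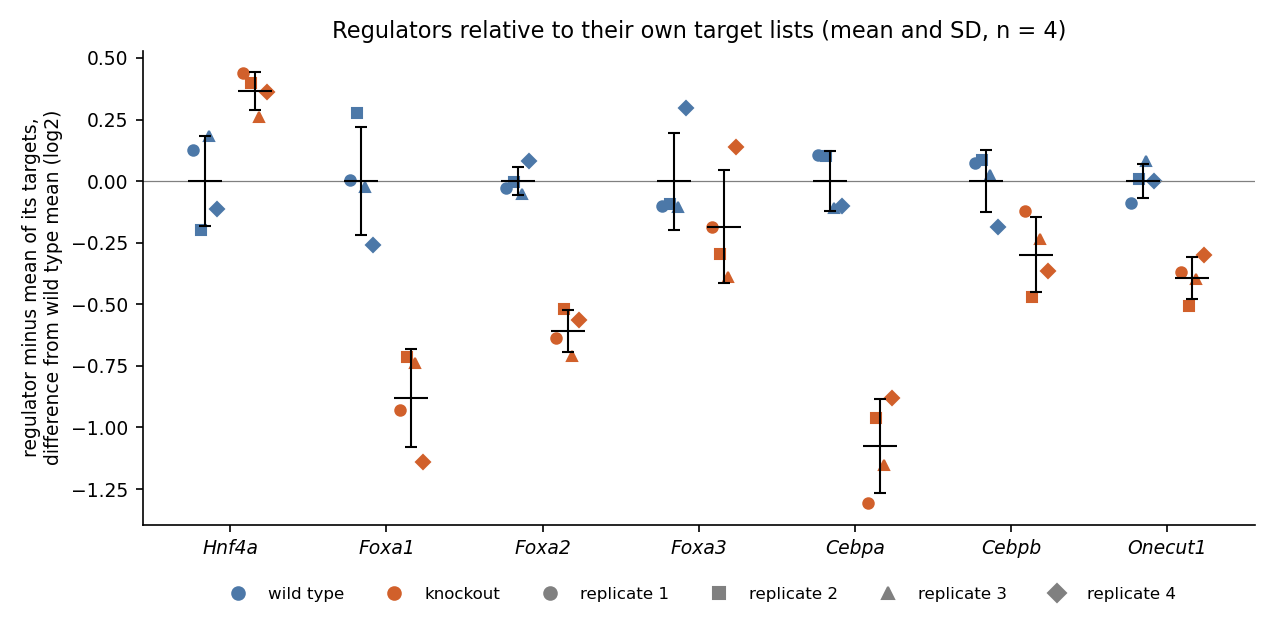
Each regulator's log2 value minus the mean of its own target list on each array, set to 0 at the wild type mean (vertical axis, log2 units); shapes mark replicates, bars the mean and SD of 4 arrays. Hnf4a lies higher by 0.36 (0.12 with the list median) while Cebpa, Foxa1, Foxa2 and Onecut1 have shifts of -1.07, -0.88, -0.61 and -0.39 without overlap, and none passed after adjustment. The lists were chosen with earlier results of these data known.

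Other transcription factors of the liver network were examined as well. Of 27 tested 4 rose, 2 fell and 21 did not pass, with a median change of 0.14. The share called was 22.2%, against 13.8% of all genes tested, and the share that rose 14.8%, against 7.02%. The orphan receptor gene Nr2f2, which codes for COUP-TFII and is also active in endothelium and stroma, measured 5.57, 5.64, 5.64 and 5.56 in wild type and 4.54, 4.78, 4.28 and 4.56 in knockout replicates, a fall of 1.06 (SE 0.11; limma, adjusted p = 7.68e-05). Nr1i2, the xenobiotic receptor PXR and a gene that HNF4A controls, rose by 1.22 (SE 0.16, adjusted p = 4.22e-04). The zinc finger factors Gata6 and Gata4 moved oppositely, by 0.52 (SE 0.13, adjusted p = 0.0185) and -0.38 (SE 0.11, adjusted p = 0.0466). The Gata4 call ended in 13 of 21 alternatives, with adjusted p-values of up to 0.119. The Gata6 call ended when replicate 1 or 2 of the wild type, or 2 or 3 of the knockout, was left out, at up to 0.0613. Hlf (0.34) and Creb3l3 (0.33) also rose and are named outside the rule. Leaving out single arrays changed the number of risers to between 1 and 4, with 1 when the first wild type or the second knockout array was left out, 4 without knockout replicate 4, and 2 otherwise.

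Relatives of the 8 factors in the forkhead, C/EBP, HNF4, ONECUT and PROX families were examined too: of 25 tested 1 rose and 1 fell (8.00%, against 13.8% of all genes tested), with a median change of 0.01 against -0.02. The riser was Foxo1, the forkhead factor that insulin holds out of the nucleus and that drives gluconeogenic genes with HNF4A (0.68, SE 0.12; limma, adjusted p = 0.00289). The fall was that of Ddit3, a C/EBP relative induced by stress of the endoplasmic reticulum (-0.82, SE 0.10, adjusted p = 3.75e-04). Among 18 tested cofactors and inhibitors Ppargc1a, the coactivator that works with HNF4A and FOXO1 in fasting, rose by 1.11 (SE 0.14, adjusted p = 3.42e-04), and Trib3, a pseudokinase induced by stress, fell by 0.42 (SE 0.09, adjusted p = 0.0102). The other 16 did not pass, so 11.1% of this list was called, against 13.8% of all genes tested.

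The genes whose profiles over the 8 arrays came nearest to the 3 risers were found by the mean absolute difference between profiles, each centred on its own mean. Hnf4a had Fmo5, a flavin monooxygenase gene, at 0.045 log2 units and the serine protease gene Tmprss2 at 0.047. Foxa3 had 1700025G04Rik at 0.061 and Pemt, which makes phosphatidylcholine, at 0.079. Prox1 had 1810012K16Rik at 0.054 and Wbp1l at 0.054. All 6 rose by 0.56 to 0.95, and the likeness is a description over 8 arrays in 2 groups.

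The cell type was checked against marker lists, since the members are also expressed elsewhere: Foxa1, Foxa2 and Onecut1 in bile duct cells, Prox1 in lymphatic endothelium and Cebpb in macrophages. Genes of the mature hepatocyte, with no member among them, rose for 21 of 30 tested, fell for none and had a median change of 0.51. Their list mean was 9.05 to 9.24 in wild type and 9.89 to 10.04 in knockout arrays. The list shares tested genes with the target lists and is not separate evidence from them. It has 9 in common with the HNF4A, 9 with the FOXA, 12 with the C/EBPalpha, 5 with the acute phase and 4 with the HNF6 list. Of all genes tested 7.02% rose and 6.76% fell. Of 20 markers of sinusoidal endothelium 18 fell, and their list mean went from between 5.56 and 5.69 to between 4.54 and 4.70. The 2 of highest level, Cdh5 and Lyve1, fell by 2.03 (SE 0.09) and 1.72 (SE 0.12).

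Of 16 Kupffer cell markers 12 fell and 1 rose, and the list mean went from between 5.12 and 5.29 to between 4.38 and 4.45. C1qa fell by 0.38 (SE 0.10), a call that 5 of the 8 single arrays ended when left out (replicates 2, 3 and 4 of the wild type, 1 and 2 of the knockout; limma, adjusted p up to 0.0802), and Cd68 rose by 0.58 (SE 0.13). Of 15 stellate cell markers 5 fell, among them Ecm1 (-0.95, SE 0.11), and Reln rose (0.99, SE 0.13), with list means of 4.87 to 4.95 in wild type and 4.35 to 4.45 in knockout arrays. The lymphatic list, which shares Lyve1 and Flt4 with the endothelial and Reln with the stellate list, had 1 rise and 2 falls among 6 tested genes. Its list mean was 5.35 to 5.52 in wild type and 4.97 to 5.25 in knockout arrays, while its median change was -0.08. Ccl21a, Sema3d and Nts of that list were not tested, so it says little of lymphatic cells. Of 7 tested bile duct markers only Cldn4 rose (1.15, SE 0.14), Sox9 had a change of -0.12 (SE 0.13), and the list means overlapped, at 5.46 to 5.69 and 5.42 to 5.79. Of 15 blood cell markers 3 were tested and none passed, with Nkg7 and Cd3e at 0.06 and -0.06, and at an unadjusted p under 0.05 also 0. The part of these shifts in the rises of Hnf4a, Foxa3 and Prox1 was not tested.

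**Figure D4:**
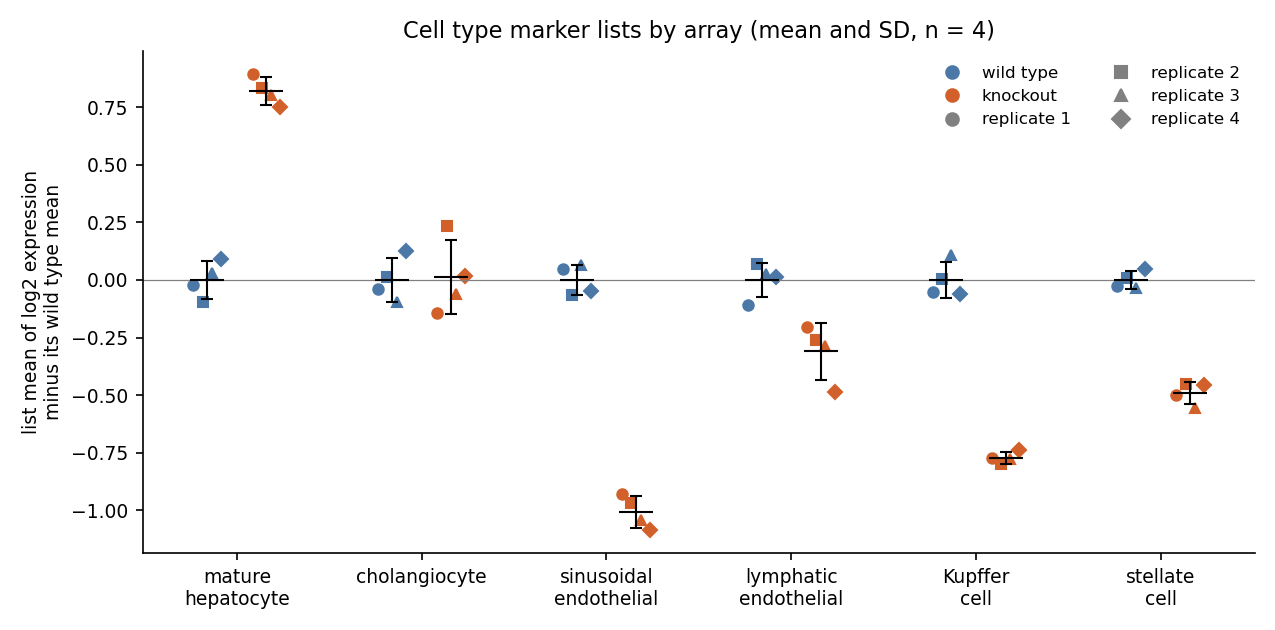
Mean log2 expression of each marker list on each array, set to 0 at the wild type mean (vertical axis, log2 units); shapes mark replicates, bars the mean and SD of 4 arrays. Mature hepatocyte genes are higher by 0.82 in the knockout while endothelial, Kupffer and stellate markers are lower by 1.01, 0.77 and 0.49, and bile duct markers overlap.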

How the data were processed

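Total RNA of 8 primary hepatocyte cultures, 4 p16 wild type and 4 knockout, was biotin-labelled and hybridised to arrays. The deposited log2 values (41345 rows, 8 columns) were made by the authors with RMA through oligo, per the submitters' processing notes, with no versions named there. RMA forces arrays to 1 distribution, so a change shared by all genes is removed and changes of very dim or very bright genes are compressed. Array medians were 3.76 to 3.88; 4 arrays per group limit the precision.

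Rows with 1 symbol in the platform annotation were kept (23521, of which 23328 matched RefSeq; 1814 had several symbols and 16010 none), the row of highest mean per gene, and genes whose mean exceeded the 40th percentile of all rows (3.32), 15380 in number. List genes without such a row were not analysed here. The 2 groups were tested by limma (version 3.58.1, R 4.3.3; lmFit, eBayes), two-sided and adjusted by Benjamini-Hochberg over all genes tested, and the procedure was tested on simulated data. Shifts between genes were compared by a two-sided exact permutation test over 70 arrangements, adjusted over 11. Python 3.11.15 was used otherwise.

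Named genes are the members; the 3 of smallest p called in each target, regulator, relative and cofactor list and those against their list's majority; the 2 markers of highest mean per other cell type; and the 2 nearest profiles per member called, 40 names beside the members. Members and lists were chosen with earlier results of these data known. Motifs, the promoters shown and the counts that leave the 8 factors out of the FOXA and HNF6 lists were chosen after the values here were seen. The replicate number was not used as a block, since no label says what it pairs. Deviations from the group means correlated at 0.061, 0.020, 0.26 and 0.21 between same-numbered wild type and knockout arrays. Alternatives were other filters, rules for genes with several rows, normalizations, variance models, array weights, the replicate block, a threshold of 0.01, the median in place of the mean of a target list and leaving out each array.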

Additional observations from a re-analysis of the deposited data

Results flagged for a closer look

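Among 144 groups of 4 arrays examined, 5 held an array whose gap to its nearest neighbour exceeded the critical share of the group's range (Dixon's test), where chance gives about 1 in 20. Wild type replicate 4 was such an array in 4 of them: Foxa2 minus Foxa3 (-0.91), Foxa3 minus its targets (-0.70), Gys2 (4.58) and Ccl2 (7.38). Wild type replicate 2 was low in Lyve1 (7.90).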

How the results depend on the processing

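Under 21 alternatives Hnf4a (change 0.84 to 0.99) and Foxa3 (0.57 to 0.73) kept their calls, none of the other members but Prox1 gained or lost one, and no member was called lower. Prox1 passed in 14 of the 21. Foxa1, never called, changed sign with array weights (0.019) and without knockout replicate 4; without single arrays it ran from -0.15 to 0.066. At an adjusted p under 0.01, 1071 genes in place of 2119 were called, 9 HNF4A targets and 1 other regulator rose; with no filter on dim genes 2 other regulators rose. Without single arrays 1448 to 2165 genes were called, 2 to 3 members, 11 to 15 HNF4A targets, 4 to 6 HNF6 targets and 1 to 4 other regulators rose, and 0 to 7 of the 11 shifts passed; other counts stayed within 1.5 times. Leaving the 8 factors out of the lists, added after seeing the data, gave 10 FOXA and 5 HNF6 targets higher. The cause was not tested; leaving out an array also leaves fewer samples. With the replicate number as a block (replicate block) 2215 genes and 3 members were called, and no member's call changed; same-numbered arrays had correlations of 0.061, 0.020, 0.26 and 0.21 between their deviations from the group means. Values near the top of the scale limit what can be said of Alb and other very bright targets.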

Other observations

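Genes of the fetal liver and of progenitor cells, which mature hepatocytes switch off, were measured on the same arrays. Of 9 tested 1 rose, 1 fell and 7 did not pass, with a median change of -0.10. The share called was 22.2%, against 13.8% of all genes tested. Sox4, a factor of immature and stromal cells, fell by 1.93 (SE 0.13; limma, adjusted p = 5.61e-06), and the surface protein gene Cd24a rose by 0.55 (SE 0.13, adjusted p = 0.0171). Afp, the fetal counterpart of albumin and a target of FOXA proteins, had a change of 0.16 (SE 0.16, adjusted p = 0.601), and Igf2 one of -0.19 (SE 0.09, adjusted p = 0.222). These 4 were named after their values were seen.

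The 7 mature hepatocyte genes that stand on none of the 5 target lists had 6 rises, no fall and a median change of 0.51. Beside them stood 41 rises among 73 tested targets and a median of 0.38, and the difference was not tested. Of all genes tested 7.02% rose. The mature hepatocyte list too was chosen with earlier results of these data known.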
